A study of Rattus norvegicus with 40 samples.

Results

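DNA methylation was compared between kidney T cell preparations of SS/CRL rats on HS chow and those of SS/CRL rats on LS chow. The comparison takes every region of the authors' table for these 2 groups, 39016 regions out of the 630893 rows of the 15 tables of the series. It rests on 8 of the 40 libraries, 4 pools of 3 rats on each side. The HS group held Dahl SS/JrHsdMcwiCrl rats (SS/CRL) at 10 weeks of age after 3 weeks on HS chow, and the LS group held rats of the same strain and age on LS chow. HS and LS are read here as high and low salt. For comparison, the same tables were taken for kidney of Dahl SS/JrHsdMcwi rats (SS/MCW) on HS or LS chow at 10 weeks, and for circulating T cells of SS/CRL rats on the same chows at the same age. The labels do not say whether kidney and blood pools came from the same animals. SS/CRL and SS/MCW are called CRL and MCW, after the colonies that keep these lines of the salt-sensitive Dahl rat, and every group carries that salt-sensitive background. The rats were pooled before sequencing, the labels give no sort or gate for the kidney cells, and no deposited value belongs to a single pool.

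Dahl SS rats become hypertensive on a high salt diet, and T cells enter their kidneys as renal damage develops. Methylation of cytosine in CpG pairs is written by DNA methyltransferases and removed through Tet enzymes. It is typically low at CpG-rich promoters, high in gene bodies and between genes, and intermediate at imprinted loci, where 1 parental copy carries the mark. Reduced representation bisulfite sequencing reads this state at CpG-rich fragments. A methylation level here is the authors' mean percentage of methylated reads over the CpGs of a region and the pools of a group. A region was called higher or lower on HS chow if the authors gave it an adjusted Mann-Whitney p under 0.05 together with a difference of 10 percentage points or more. Their p-values reached 3.7e-14, while 4 pools compared with 4 in an exact rank test could give no p under 0.0286. They were therefore computed over more values than the pools, and the spread between pools does not stand beside any level given here.

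Promoters of 4 genes are printed because they carry called regions that the results below turn on: Plagl1 and Igf2r for the imprinted genes, Pck1 for the proximal tubule, and Wfdc2 for the decreases. Each run holds 250 bases before and 50 bases after the start of the gene in RefSeq's annotation of GRCr8, with each CpG in capitals. The tables use rn5 positions, and the windows were not placed against the regions.
Plagl1: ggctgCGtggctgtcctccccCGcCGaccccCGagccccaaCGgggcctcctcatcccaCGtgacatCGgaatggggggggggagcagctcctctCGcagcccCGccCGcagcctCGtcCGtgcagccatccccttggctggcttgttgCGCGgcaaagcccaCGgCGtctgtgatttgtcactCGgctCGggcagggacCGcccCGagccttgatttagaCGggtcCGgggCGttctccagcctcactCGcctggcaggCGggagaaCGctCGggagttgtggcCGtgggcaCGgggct
Igf2r: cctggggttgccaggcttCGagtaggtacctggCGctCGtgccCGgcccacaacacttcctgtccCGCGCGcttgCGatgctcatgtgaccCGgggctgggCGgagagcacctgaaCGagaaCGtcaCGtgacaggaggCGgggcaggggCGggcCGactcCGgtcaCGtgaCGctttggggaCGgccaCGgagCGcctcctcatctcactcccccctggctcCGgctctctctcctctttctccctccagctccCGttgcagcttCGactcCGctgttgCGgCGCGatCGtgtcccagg
Pck1: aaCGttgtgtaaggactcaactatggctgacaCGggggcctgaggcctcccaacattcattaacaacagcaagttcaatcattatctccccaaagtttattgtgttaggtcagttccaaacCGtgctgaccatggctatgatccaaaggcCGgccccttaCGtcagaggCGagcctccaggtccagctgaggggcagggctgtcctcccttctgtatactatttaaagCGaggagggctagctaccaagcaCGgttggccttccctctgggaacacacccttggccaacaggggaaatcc
Wfdc2: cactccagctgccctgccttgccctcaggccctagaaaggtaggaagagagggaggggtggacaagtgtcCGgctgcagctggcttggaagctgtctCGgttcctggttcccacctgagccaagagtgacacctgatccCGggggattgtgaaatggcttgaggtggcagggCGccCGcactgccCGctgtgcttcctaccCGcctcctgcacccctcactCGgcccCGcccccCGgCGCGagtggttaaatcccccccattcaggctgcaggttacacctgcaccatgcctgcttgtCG
The Plagl1 window holds 29 CpGs and the Igf2r window 30, more than 87.7% and 88.9% of the promoters in the RefSeq table. The Wfdc2 window holds 13 CpGs and the Pck1 window 8.

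In kidney T cell preparations of CRL rats, 1451 of 39016 regions (3.72%) were called between HS and LS chow. Of these, 1284 (3.29%) were higher and 167 (0.428%) lower on HS chow. Regions called higher were mostly partly methylated on LS chow: their median level was 33.1% on HS and 17.2% on LS chow, and 1007 of them (78.4%) lay between 5 and 40% on LS chow, against 13.5% of all regions. Regions called lower started high, with a median level of 53.4% on HS and 68.3% on LS chow. The change reached at least 20 percentage points in 194 regions called higher and in 29 called lower. With the q-value of the authors' deposited table under 0.05 in place of the adjusted p, 57 regions were higher and 0 lower, so that every call of a decrease rests on the adjusted p. Most regions stayed near 0 in both groups: 49.4% were under 1% in each, and the median level over all regions was 0.677% on HS and 0.636% on LS chow. The mean over all regions was 0.831 percentage points higher on HS chow.

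**Figure D1:**
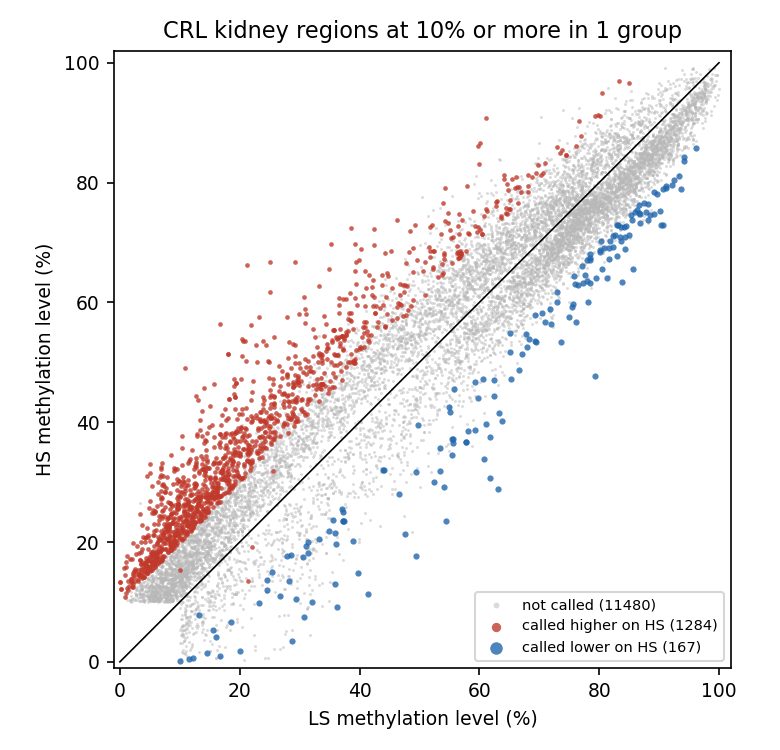
Methylation level on HS chow (vertical, %) against that on LS chow (horizontal, %) for the 12931 CRL kidney regions at 10% or more in at least 1 group. Each point is a region, coloured by its call in the authors' deposited table, and the line marks equal levels. Called increases gather below 40% on LS chow, and 127 of the 167 called decreases lie at or above 40% on LS chow.

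The adjusted p alone separated few changes of size. It was under 0.05 in 20565 regions, of which 15719 (76.4%) differed by less than 1 percentage point. Of the 20565, 5972 had a positive difference on HS chow, 7427 a negative one and 7166 a difference of exactly 0 in the authors' deposited table. Highly methylated regions tended slightly downward. Over the 6295 regions with a mean level of at least 60%, the median difference was -2.31 percentage points, and 5.85% of them lay within 1 percentage point of 0. In MCW kidney the corresponding median was 3.39 percentage points over 6959 regions, with 6.06% within 1 percentage point. Regions are segmented anew in each table, and the part of that step in this low share near 0 was not tested.

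By position relative to genes, gene bodies had the highest share of calls. Of 5639 regions in gene bodies, 473 (8.39%) were higher and 48 lower on HS chow, with mean levels of 37.5% on HS and 35.6% on LS chow. Of 15284 intergenic regions, 610 (3.99%) were higher and 93 lower, with means of 29.6% and 28.6%. Of 18093 regions at transcription start sites (TSS regions), 201 (1.11%) were higher and 26 lower, with means of 2.80% on HS and 2.46% on LS chow. TSS regions are mostly unmethylated, and only 1269 of them reached 10% in 1 of the groups. Among those 1269, 15.8% were called higher, against 12.2% of the gene body regions and 7.84% of the intergenic regions that reached 10%. The order of the classes therefore turns with the regions counted. Regions called higher had a median of 6.56 CpGs per 100 bases, against 5.32 in uncalled regions at 10% or more. Every chromosome contributed, with the share called higher running from 2.05% on X to 5.04% on chromosome 19.

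Of 8818 genes with a region in the table, 560 (6.35%) had 1 or more regions called higher and 75 (0.851%) 1 or more called lower. The 22 gene lists held 768 genes, of which 425 had a region. An increase was called in 51 of the 425 and a decrease in 6. A gene with more regions, or with partly methylated ones, can be called more easily, and only 207 of the 425 had a region at 10% or more in 1 group. List counts are therefore descriptions.

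**Figure D2:**
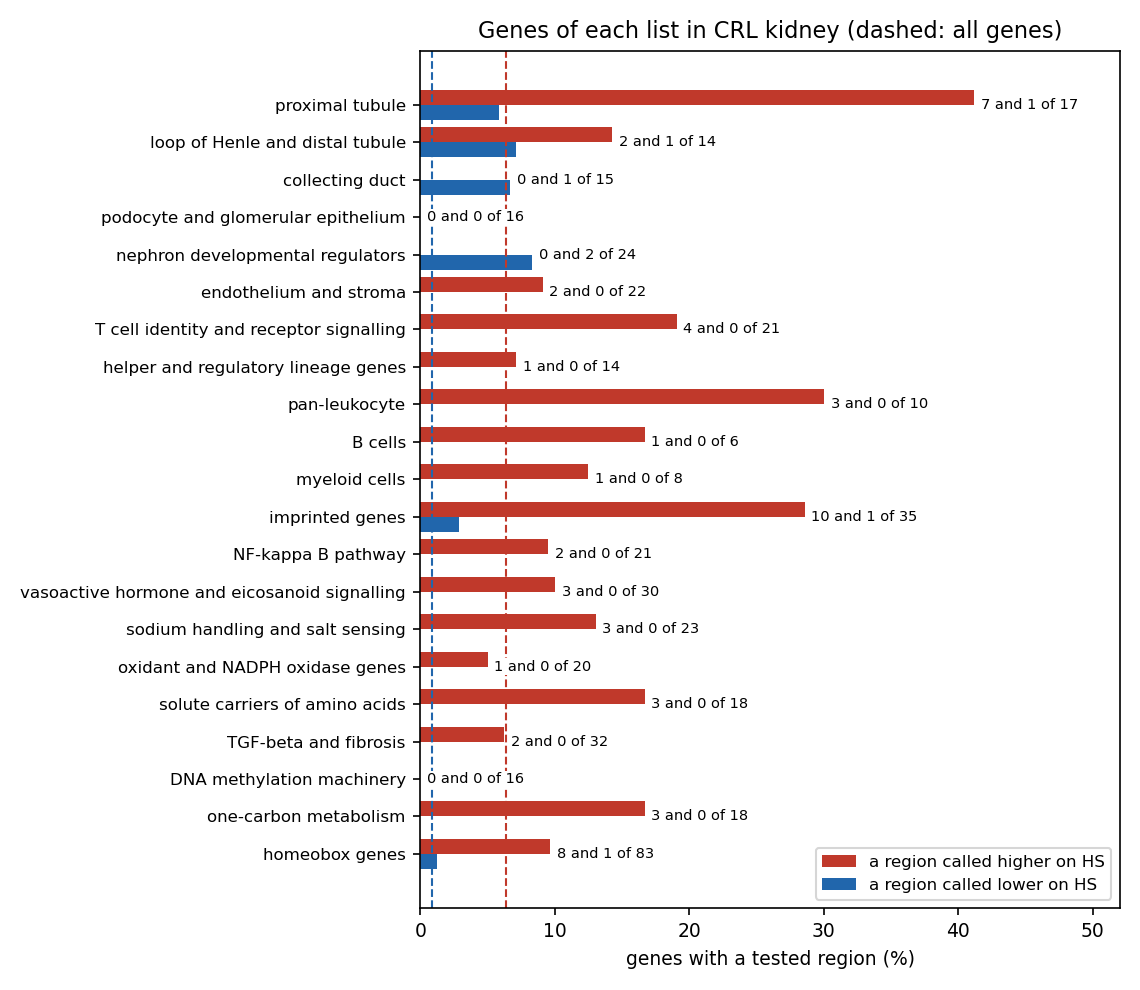
Share of the genes of each list (horizontal, % of genes with a tested region) that had a region called higher or lower on HS chow in CRL kidney, with the counts of genes called higher and lower beside each pair of bars. Dashed lines mark the shares over all genes, 6.35% higher and 0.851% lower. Proximal tubule genes, pan-leukocyte genes and imprinted genes stand farthest above the line for higher regions. The list of natural killer and cytotoxic genes had no tested region and is not drawn.

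Imprinted genes, expressed from 1 parental copy, were the list with the most called regions. Of 35 with a region, 10 held a called increase and 1 of them, Zrsr1, also a called decrease, and 19 of their 125 regions were called higher. These are 28.6% of the genes and 15.2% of the regions, against 6.35% of all genes and 3.29% of all regions. Of the 125, 67 reached 10% in 1 group, against 33.1% of all regions, so more of them could be called. The median difference over the 125 regions was 1.43 percentage points, against 0 over all regions, and the list's mean level was 19.8% on HS and 16.1% on LS chow. Plagl1, a zinc finger transcription factor that restrains growth, had 3 of its 5 TSS regions called higher. Its largest increase, at chr1:8857179-8857264 over 9 CpGs, put the level at 42.2% on HS and 19.2% on LS chow (adjusted p 2.95e-11, authors' deposited table). The other 2 of its called regions stood at 15.7% and 16.5% on HS chow, against 4.73% and 5.79% on LS chow. At both, the difference was only 5.64 percentage points in the tables that set these libraries against blood.

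Igf2r, the receptor that clears insulin-like growth factor 2, had 1 of its 6 regions called. At its start site, chr1:51577051-51577145 over 17 CpGs, the level was 29.4% on HS and 10.2% on LS chow (adjusted p 2.03e-12, authors' deposited table). A neighbouring region of 5 CpGs at chr1:51577260-51577299 went the other way without a call, at 27.5% on HS and 39.1% on LS chow. Zrsr1, a splicing factor gene, was called in both directions. Its region at chr14:107827099-107827233 stood at 29.5% on HS and 7.07% on LS chow, and the one at chr14:107824610-107824758 at 35.7% on HS and 53.5% on LS chow.

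Grb10, an adaptor that dampens insulin receptor signalling, was higher on HS chow in each of its 6 regions, 4 of them called. The widest of these, chr14:91913926-91914126 with 25 CpGs, was at 37.6% on HS and 20.6% on LS chow (adjusted p 2.03e-12, authors' deposited table). Gnas encodes the stimulatory G protein alpha subunit and other products from several promoters, and 5 of its 21 regions were called. At the first of its start sites, chr3:178426511-178426771 over 20 CpGs, the level was 21.3% on HS and 9.78% on LS chow. The other 4 called regions lay between chr3:178471493 and chr3:178472241, at 17.1% to 33.0% on HS and 6.00% to 18.7% on LS chow. Between these groups, at chr3:178440404-178440631, the levels were 34.9% to 41.8% on HS and 43.3% to 48.7% on LS chow, with no call. Other uncalled middle regions went either way. At chr3:178438668-178438754 and chr3:178441300-178441699 the levels were 43.0% and 33.1% on HS chow, against 37.4% and 27.9% on LS chow. At chr3:178441260-178441289 and chr3:178470531-178470604 they were 43.1% and 41.8% on HS chow, against 44.7% and 44.3% on LS chow. The 3 regions with the highest coordinates were under 1% in both groups. Mest, Meg3, Nnat, Kcnq1 and Slc38a4 also had 1 called region each, all higher. Their levels ran from 24.8% to 66.8% on HS and from 12.4% to 31.4% on LS chow. Some of these differences also fell under 10 percentage points in the tables that set these libraries against blood. They were 5.9 at Meg3, 7.82 at Kcnq1 and 1.67 at the Grb10 region chr14:91913872-91913915. Apart from these and Plagl1, the called regions of imprinted genes kept at least 10 percentage points.

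Blood of CRL rats on the same chows gave a yardstick for these loci. At the 49 regions of imprinted genes with 25 to 75% methylation in CRL blood on both chows, kidney averaged 30.6% on HS and 21.6% on LS chow, against 41.0% and 40.7% in blood. The HS level was nearer to its own blood level than the LS level was in 44 of the 49. Kidney was on average below blood there, so a rise mostly counts as nearer. The level rose in 44 of the 49, and 19 of them were called higher, so this count is not independent of the calls. Over all 2988 regions in that range of blood levels the kidney means were 31.9% on HS and 27.5% on LS chow, and the HS level was nearer in 75.9%.

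**Figure D3:**
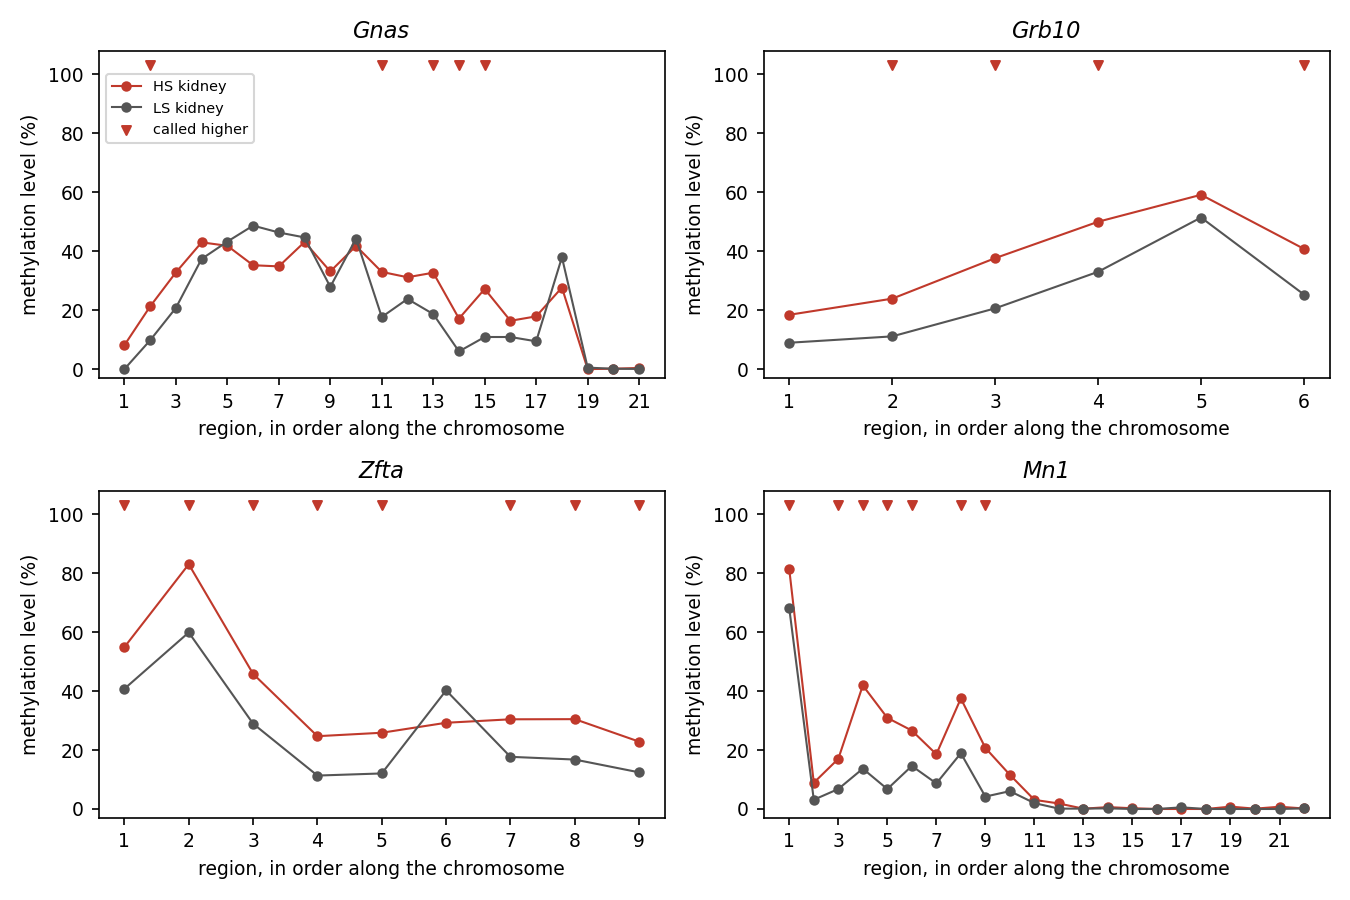
Methylation level (vertical, %) of each region of Gnas, Grb10, Zfta and Mn1 in CRL kidney on HS and LS chow, with regions in order along the chromosome (horizontal, region number). Points are group means of 4 pools without a spread, and triangles mark regions called higher. The HS level lies above the LS level at all 6 Grb10 regions and at 8 of 9 Zfta regions, while Gnas crosses over in its middle regions and is near 0 in both groups at its last 3.

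Among genes that mark kidney epithelium, those of the proximal tubule, the segment that reclaims most filtered solutes, had the highest share of calls. Of 17 with a region, 7 held a called increase (41.2%, against 6.35% of all genes) and 1 of these, Amn, also a called decrease. Over the 40 regions of the list the median difference was 4.84 percentage points. Slc9a3, the apical sodium-proton exchanger, was at 39.5% on HS and 15.4% on LS chow in a gene body region (chr1:33161965-33161983). Pck1, the enzyme that commits carbon to gluconeogenesis, was at 32.4% on HS and 8.99% on LS chow at its start site (chr3:177280735-177280964, 8 CpGs) (adjusted p 2.52e-07, authors' deposited table). Slc3a1, a subunit of the cystine transporter, was called at its start site (26.0% on HS, 12.8% on LS chow) and in its gene body (74.8% and 56.5%). The start sites of Aqp1, a water channel, and Slc22a6, an organic anion carrier, were at 32.4% and 22.0% on HS chow, against 18.1% and 9.63% on LS chow. Fbp1, another gluconeogenic enzyme, was at 19.5% on HS and 9.40% on LS chow.

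In genes of the loop of Henle and the distal tubule, calls went both ways: of 14 with a region, 2 were called higher and 1 lower. Stk39, a kinase that activates sodium-chloride cotransport, was at 49.98% on HS and 22.8% on LS chow in its gene body (chr3:61009948-61010058). Cldn10, a tight junction protein of the thick ascending limb, was at 17.7% on HS and 49.5% on LS chow. Of 15 collecting duct genes with a region none was called higher, and 1 was called lower. That was Wfdc2, a secreted protein of epithelia, whose start site (chr3:167197652-167197704, 5 CpGs) was at 28.8% on HS and 63.0% on LS chow (adjusted p 0.00192, authors' deposited table). None of 16 podocyte genes was called in either direction. Of 24 regulators of nephron development, none was called higher and both Hoxc10 and Pax2 were called lower, at 21.4% and 28.1% on HS chow, against 47.5% and 46.7% on LS chow. Over all genes, 6.35% were called higher and 0.851% lower. The lack of an increase among collecting duct, podocyte and nephron development genes is near the share called higher. The decreases in these lists rest on 1 or 2 genes each and are descriptions. At least 10% in 1 group was reached by 8 of 15 collecting duct genes and 5 of 16 podocyte genes. The same held for 13 of the 24 nephron regulators, against 17 of 17 proximal tubule genes. Of 22 endothelial and stromal genes, 2 were called, both higher: Acta2, smooth muscle actin, at 31.2% on HS and 14.0% on LS chow, and Flt1, a vascular growth factor receptor, at 28.2% and 14.6%.

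Called regions of T cell genes were higher on HS chow. Of 21 genes of T cell identity and receptor signalling with a region, 4 held a called increase and 0 a called decrease, with 7 of 74 regions called and a median difference of 0 over all 74. Decreases were called in 0.851% of all genes, so the absence of one among 21 is near the overall share. Skap1, an adaptor that links the receptor to adhesion, was at 22.4% on HS and 4.56% on LS chow. Runx3, a transcription factor of cytotoxic T cells, had 3 called gene body regions, at 21.4% to 39.4% on HS and 10.9% to 29.0% on LS chow. Zap70, the kinase that relays the receptor signal, had 2, at 24.3% and 31.0% on HS chow against 11.1% and 18.8% on LS chow. Cd247, the zeta chain of the receptor, was at 75.6% on HS and 64.9% on LS chow. In the same way 3 of 10 pan-leukocyte genes were called higher: Cd52 and Lsp1, surface and cytoskeletal proteins of leukocytes, and Arhgap45, with 3 regions. In the lists of other blood cells, 1 of 6 B cell genes (Ebf1) and 1 of 8 myeloid genes (Fcgr1a) were called higher. The shares called higher were 19.0% of T cell, 30% of pan-leukocyte, 16.7% of B cell and 12.5% of myeloid genes. Over all genes the share was 6.35%, and with so few genes a list these counts are descriptions. In the tables that set these libraries against blood, some of the differences at these called regions fell under 10 percentage points. They were 6.81 to 8.42 at the 3 Runx3 regions and 7.07 at the Zap70 region with 24.3% on HS chow. Lsp1 was at 8.5, Fcgr1a at 5.76 and the Arhgap45 region with 79.3% on HS chow at 1.14. The other called regions of these lists kept at least 10 percentage points. No region of Cd8a, a chain of the co-receptor on cytotoxic T cells, was called. Its most methylated start-site region was at 20.5% on HS and 31.0% on LS chow (adjusted p 0.609, authors' deposited table). Cd3e, Cd4, Foxp3, Ifng and Il17a had no region in the table.

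The labelled cell type was set against these lists with blood as a guide. At the 19 regions of the T cell list with at least 60% methylation in CRL blood on both chows, kidney averaged 40.6% on HS and 33.1% on LS chow, against 81.3% and 80.6% in blood. At the 16 such regions of proximal tubule genes, kidney averaged 33.8% on HS and 24.2% on LS chow, against 84.1% and 80.1% in blood. The 15 such regions of endothelial and stromal genes also lay under blood but were not higher on HS chow, at 47.4% on HS and 47.7% on LS chow, against 83.1% and 83.7% in blood. At the 11 regions of the T cell list under 10% in blood on both chows, kidney averaged 9.04% on HS and 7.603% on LS chow, against 0.597% and 0.628% in blood. Of these 11, 1 lay at least 20 percentage points above blood. That was the start site of Lat, an adaptor needed for receptor signalling, at 32.5% on HS and 27.6% on LS chow in kidney, against 0.188% and 0% in blood. The gap to blood was smaller in some lists. At 7 regions each at 60% or more in blood, loop of Henle and distal tubule genes averaged 64.5% on HS and 60.1% on LS chow in kidney. B cell genes averaged 64.5% and 60.6%. Blood was at 82.1% to 84.4% there. Over 4106 regions at 75% or more in CRL blood, kidney averaged 58.0% on HS and 54.0% on LS chow, against 84.9% and 84.8% in blood. The libraries are called kidney preparations here because no sort or gate is given and regions methylated in blood were on average lower in kidney. The makeup of cells was not measured, and its part in the changes was not tested. In bulk libraries, a change in the share of cells that carry a mark and a change of the mark within cells cannot be told apart.

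Among genes tied to salt and blood pressure, 3 of 23 sodium handling genes were called higher: Slc9a3 and Stk39, given above, and Atp1b1, the beta subunit of the sodium pump, at 28.2% on HS and 16.1% on LS chow. Of 30 genes of vasoactive hormones and eicosanoids, 3 were called higher. Tbxa2r, the thromboxane receptor, had 3 neighbouring gene body regions called, at 34.8%, 56.4% and 60.9% on HS chow against 21.6%, 16.7% and 30.7% on LS chow. Npr1, the receptor of atrial natriuretic peptide, was at 71.4% on HS and 53.5% on LS chow at its start site. In the tables that set these libraries against blood, the overlapping region was at 20.6% on HS chow, with no LS value. No MCW kidney region overlapped it, so this call is uncertain. Adra1b, an adrenergic receptor, was at 20.8% on HS and 4.67% on LS chow. In the NF-kappa B pathway, which drives inflammatory transcription, 2 of 21 genes were called higher. Nfkb1, which encodes its p50 subunit, was at 45.6% on HS and 14.1% on LS chow. Card10, a scaffold upstream of the pathway, was called in both its start-site region (40.5% on HS, 21.2% on LS chow) and a gene body region (28.4% and 7.46%). Of 20 oxidant genes 1 was called higher: Gpx4, which reduces lipid peroxides, at 49.0% on HS and 28.5% on LS chow. The shares called higher were 13.0% for sodium handling, 10% for vasoactive, 9.52% for NF-kappa B and 5% for oxidant genes. Over all genes the share was 6.35%, and with so few genes a list these counts are descriptions. Among 32 genes of TGF-beta signalling and fibrosis, Ltbp4, a binding protein of latent TGF-beta, and Tgfbr2, a receptor of TGF-beta, were called higher, a share close to the 6.35% of all genes.

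Among the enzymes that write and remove methylation, 0 of 16 genes was called in either direction at an adjusted p under 0.05 and 10 percentage points in the authors' deposited table. Only 4 of the 16 had a region at 10% or more, and 6.35% of all genes were called higher, so this count is near the overall share. Of the methyltransferases, Dnmt3b was under 1% in both groups at 5 start-site regions. A gene body region of Dnmt3a, which sets new methylation, was at 73.8% on HS and 58.5% on LS chow (adjusted p 0.172, authors' deposited table). Another gene body region of Dnmt3a was at 51.5% on HS and 55.9% on LS chow. Its start-site region was at 22.3% and 20.6%, and none of these was called. Dnmt1, Tet1, Tet2 and Tet3 had no region. In one-carbon metabolism, which feeds methyl groups to these enzymes, 3 of 18 genes were called higher (16.7%, against 6.35% of all genes). The 3 lie next to each other on chromosome 2. Bhmt, which methylates homocysteine with betaine, was at 45.6% on HS and 33.6% on LS chow. Bhmt2 and Dmgdh share 2 start-site regions, at 22.6% and 24.96% on HS chow against 11.3% and 5.80% on LS chow. At the first of these, the difference was only 3.15 percentage points in the tables that set these libraries against blood. Of 18 amino acid carrier genes, 3 were called higher (also 16.7%), Slc3a1, Slc38a4 and Slc38a1. With so few genes a list, these counts are descriptions. Of 83 homeobox genes, 8 were called higher (9.64%, against 6.35% of all genes) and 1 lower (0.851% of all genes were called lower). Hoxb3 was at 29.3% on HS and 5.41% on LS chow, and Hoxd12 at 29.8% on HS and 8.79% on LS chow, both at start sites. Among helper lineage genes, 1 of 14 was called (7.14%), near the 6.35% of all genes. It was called in a start-site region of Socs3, an inhibitor of cytokine signalling, at 27.6% on HS and 15.2% on LS chow. That call did not hold in the tables that set these libraries against blood, where the HS minus LS difference of the overlapping region was -7.97 percentage points.

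Some genes gained methylation over many regions. Zfta, listed under the older symbol RGD1560108 and best known in human for its fusion with RELA in ependymoma, had 8 of 9 regions called higher. They stood at 22.8% to 83.0% on HS and 11.3% to 59.9% on LS chow. In the tables that set these libraries against blood, the difference was 27.5 percentage points at chr1:229660825 and 22.8 at chr1:229660000. It was 2.97 at chr1:229660994 and 9.66 at the other called regions, which share 1 pair of levels there. In the tables that compare the colonies, it fell to 6.63 at chr1:229660825 and 3.835 at chr1:229661684, and stayed at 10 or more elsewhere. Mn1, a transcriptional coactivator, had 7 of 22 regions called higher, 6 of them within chr12:52990020-52991118, at 17.0% to 41.9% on HS and 4.21% to 18.9% on LS chow. From chr12:52991891 onward its 11 regions were under 2% in both groups. Cmip, an adaptor protein, had 5 of 19 regions called higher, with the largest difference at chr19:60631175-60631268 (34.5% on HS, 8.49% on LS chow). Single regions with large differences included Fbxo31, a subunit of a ubiquitin ligase, at 49.0% on HS and 10.9% on LS chow. Msh5, a meiotic recombination protein, was at 69.7% on HS and 35.2% on LS chow, and Ctnnbip1, an inhibitor of beta-catenin, at 72.5% and 38.5%. Prpf18, a splicing factor, was at 31.1% on HS and 4.53% on LS chow over 7 CpGs (adjusted p 6.72e-09, authors' deposited table). The widest change of all lay between genes, at chr7:76003532-76003579, at 66.2% on HS and 21.2% on LS chow.

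By the difference in the authors' deposited table, the 10 genes with the largest decreases were Wfdc2, Msl3l2, Cldn10, Plec, Acvr1c, Hoxc10, Pdgfa, Farp1, Crb2 and Lamc1. None of these holds with the q-value of that table. Plec, the cytoskeletal linker plectin, was at 23.4% on HS and 54.4% on LS chow at its start site, and Acvr1c, a receptor of the activin family, at 33.8% and 60.7% in its gene body. Lamc1, a laminin chain of basement membranes, was at 29.9% on HS and 52.5% on LS chow, and Pdgfa, a growth factor, at 3.51% and 28.8%. A start-site region shared by the microRNA genes Mir141 and Mir200c, of an epithelial family, was at 72.9% on HS and 82.9% on LS chow, just past the limit, and was named after its values were seen. In the tables against blood, the region overlapping it had the opposite sign, at 68.5% on HS and 60.5% on LS chow.

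The same chow contrast in MCW kidney, which shares no rats with the CRL table, showed the increases again and the decreases mostly not. There, 4424 of 34115 regions (13.0%) were called higher. Of the 1284 CRL increases, 1178 overlapped a region of the MCW table, and in 1168 of them (99.2%) the MCW level was higher on HS chow, with a median difference of 17.4 percentage points. Of the 1178, 907 (77.0%) were called higher in MCW kidney and 1 was called lower. Over all 16034 overlapping regions the corresponding shares were 78.6% and 17.7%, with a median of 2.15 percentage points. Over the 6633 overlapping regions at 10% or more that had no CRL call, they were 87.4% and 25.5%, with a median of 6.82. Several CRL regions can overlap the same MCW region. Myo7b, a myosin of the brush border, was at 50.2% on HS and 20.99% on LS chow in CRL kidney and at 55.6% and 18.5% in MCW kidney. Stk39 was at 49.0% on HS and 20.1% on LS chow in MCW kidney, close to its CRL levels.

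Of the 167 CRL decreases, 101 overlapped a region of the MCW table, and 67 of them (66.3%) were higher on HS chow there, with a median of 4.95 percentage points. Of these 101, 24 were called higher in MCW kidney and 14 lower. The CRL LS group was the highest of the 4 kidney groups in 87 of the 101 (86.1%), and the lowest in 892 of the 1178 increases (75.7%). Both shares follow in part from the choice of these regions by their CRL levels. Median levels over the 101 were 40.3% on HS and 60.6% on LS chow in CRL kidney, against 43.6% on HS and 38.2% on LS chow in MCW kidney. At Wfdc2 the MCW levels were 29.4% on HS and 27.2% on LS chow, near the CRL HS level of 28.8% and far from the CRL LS level of 63.0%. That gap depends on the stretch measured. In the tables that set these libraries against blood, the overlapping CRL region was at 24.0% on HS and 32.6% on LS chow. In the tables that compare the colonies, its HS minus LS difference was -35.9 percentage points. Lamc1 was called in opposite directions, at 54.9% on HS and 24.9% on LS chow in MCW kidney. Among the few regions called lower in both colonies were those of Ppp2r5c, a phosphatase subunit, and Uhmk1, a kinase, both named after their values were seen. Ppp2r5c was at 56.4% on HS and 71.9% on LS chow in CRL kidney and at 42.1% and 68.8% in MCW kidney. Several regions of Rn5-8s, part of the ribosomal RNA repeat, were also called lower in both colonies. On chromosomes 1 and 14 these had the same CRL levels, 23.4% on HS and 37.2% on LS chow. Such copies are uncertain, so the 14 shared decreases are not 14 separate loci. Read from the MCW side, 2764 MCW increases overlapped a CRL region, of which 87.3% were higher on HS chow in CRL kidney and 872 (31.5%) were called higher. Their median difference was 8.13 percentage points in CRL kidney and 16.8 in MCW kidney. Of the 54 MCW decreases that overlapped a CRL region, 17 (31.5%) were higher on HS chow in CRL kidney, with a median of -5.03 percentage points, and 13 were called lower there against 1 higher. MCW decreases thus mostly had the same sign in CRL kidney, while CRL decreases mostly did not in MCW kidney. Copies of repeats were not set apart in these counts. Whether the colonies differ was not tested, for want of values per pool.

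Circulating T cells of CRL rats on the same chows did not show the increases. In blood, 144 of 35823 regions (0.402%) were called in either direction. Of the CRL kidney increases, 660 overlapped a blood region, and 264 (40.0%) of these were higher on HS chow in blood, with a median difference of -1.46 percentage points. Only 2 of the 660 were called higher in blood, and 11 were called lower. Over all 13391 overlapping regions, 43.5% were higher on HS chow.

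**Figure D4:**
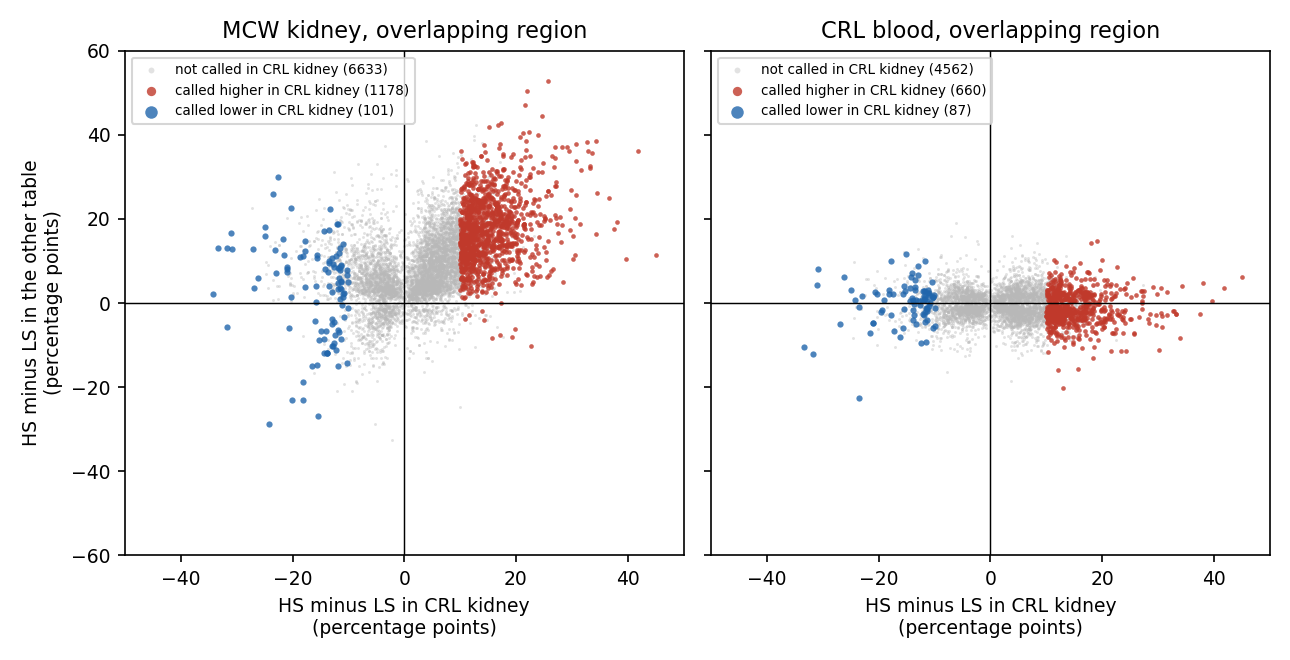
HS minus LS difference (percentage points) in MCW kidney (left) and in CRL blood (right) against that in CRL kidney, for overlapping regions at 10% or more in CRL kidney. Each point is a CRL kidney region coloured by its call there. The 1178 increases lie almost wholly above 0 in MCW kidney and are scattered around 0 in CRL blood, and the 101 decreases fall on both sides of 0 in MCW kidney.

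The regions that gained methylation in CRL kidney were mostly those that kidney preparations carry at a lower level than blood. Among 1190 increases with levels in the tables that set kidney against blood, the medians were 32.7% on HS and 16.9% on LS chow in kidney, against 77.8% and 77.5% in blood. The HS level was below blood in 91.2% of them. A call favours regions that are low on LS chow, so the regions were also sorted by MCW LS libraries, none of which enter the CRL table. Where MCW kidney was at least 40 percentage points below MCW blood (2317 regions), the CRL median difference was 8.10 percentage points, and 716 regions (30.9%) were called higher against 8 lower. The mean CRL level in this class was 26.0% on HS and 18.5% on LS chow, beside 78.5% in MCW LS blood. Where MCW kidney and blood lay within 5 percentage points (10140 regions), 0.168% were called higher and 0.138% lower. The mean CRL level in that class was 9.36% on both chows, beside 10.3% in MCW LS blood. The classes thus differ in methylation level as well as in the gap to blood, and the 2 were not separated. Where MCW kidney was at least 20 percentage points above blood (259 regions), 13.1% were called higher and 4.63% lower, with a median of 3.98. An increase took the kidney level nearer to blood in the first class and farther from it in the last. Sorted by the MCW LS kidney level alone, the CRL median was 4.38 percentage points between 5 and 20%, 7.01 between 20 and 40% and 4.95 between 40 and 60%. It was -1.87 between 60 and 80% and -2.64 above 80%.

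**Figure D5:**
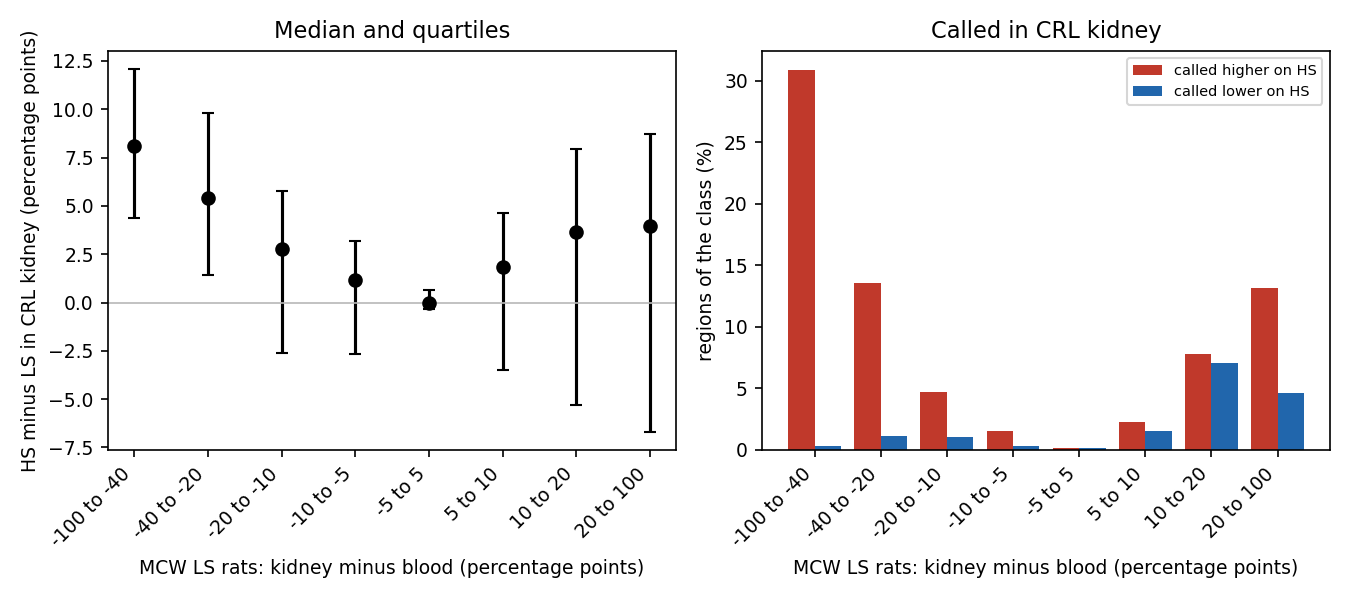
CRL kidney regions sorted by the difference between kidney and blood in MCW rats on LS chow (horizontal, percentage points). Left, median and quartiles of HS minus LS in CRL kidney (percentage points), and right, the share of each class called higher or lower on HS chow (%). The median is 8.10 percentage points in the class farthest below blood and near 0 in the class within 5 percentage points. The mean CRL level of the latter class was 9.36% on both chows.

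The same 8 libraries also enter other tables of the series, with regions segmented anew. In the tables against blood, 1190 of the increases had an overlapping region for both chows, and 98.0% kept their sign, 76.1% with at least 10 percentage points. Of 96 decreases with such regions, 86.5% kept their sign and 60.4% were at least 10 percentage points lower. In the tables that compare the colonies, 97.2% of 789 increases and 94.0% of 83 decreases kept their sign. Some large differences were much smaller in the tables against blood. For Wfdc2 the HS minus LS difference became -8.52 percentage points, for Cldn10 -15.6, for Fbxo31 14.0 and for Hoxb3 10.1. These are the same pools measured over other stretches and add no replicate.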

How the data were processed

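Reduced representation bisulfite libraries were made by the submitters, per the labels' protocols, and read in paired-end runs. Positions use rn5 per the submitters' processing notes. Neither aligner nor caller is named (not given in the sources used here). Whether starts count from 0 or 1 is not stated, and positions are printed as deposited. The deposited tables give each region's methylation level per group as a fraction by the authors, printed here in percent, the authors' difference on the same scale, and the number of CpGs (at least 5). The authors' columns also hold a Mann-Whitney p, the same after adjustment, a second p-value of another kind and a q-value. No read depth or value per pool is given in the tables, so the depth is unknown and no interval was computed. Replicates are pools, and no p-value here measures the spread between them.

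Differences were oriented as HS minus LS. Recomputing Benjamini-Hochberg values from the Mann-Whitney column gave the deposited adjusted ones. No test was added. In 2 called regions, in C2cd4c and Shank3, the level columns went against the authors' difference, which was kept. Regions of different tables were matched by at least 1 shared base, taking the one with most overlap. Of 8829 gene symbols, 8282 were current in RefSeq's GRCr8 table and 430 matched 1 synonym. Of the 15 tables, 10 were used. Unused columns of per-sample values number 0.

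The comparison, the gene lists and the rules were chosen with earlier results of these data known. Named genes were the largest differences, those with most called regions, up to 4 members of each list, those called alike in MCW kidney, and a fixed set of T cell, methyltransferase and Tet genes. Not every gene this rule gives is printed. Other called members of a list were added where its count is given, as were Lat and the genes said to be named after their values were seen. Counting was tested on simulated data. Python 3.11.15, pandas 2.3.3, numpy 2.4.6 and matplotlib 3.10.9 were used.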

Additional observations from a re-analysis of the deposited data

How the results depend on the processing

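No paired analysis was possible because the tables hold no value per pool, and for the same reason no pool could be left out. With no minimum difference 5972 regions counted as higher on HS chow and 7427 as lower, so that the balance turned. At 5 percentage points there were 2193 and 434, and at 20 there were 194 and 29. By class, 20 percentage points left 29 higher and 4 lower TSS regions, 70 and 10 in gene bodies and 95 and 15 between genes. An adjusted p under 0.01 left 69 lower regions, the q-value 57 higher and 0 lower, the further p-value, adjusted, 440 and 20, and at least 10 CpGs 126 and 10. Adjusting over regions at 10% or more left 85 lower, and levels from the tables against blood, with no p, gave 536 lower. The mean difference of 0.831 percentage points became 0 as a median, 2.23 in the tables against blood and 1.51 in the colony tables. Listed genes called higher fell to 28 with promoters only and 12 at 20 percentage points, and those called lower to 3 and 3. With an overlap of at least 50% of each region, 57.7% of the decreases were higher on HS chow in MCW kidney. Of the regions of named genes, 4 reversed in the tables against blood: Socs3 (-7.97) and Rn5-8s (-0.858, -5.07 and 0.657), the first of these also listed under Rn28s (-0.858). The region of Mir141 and Mir200c, outside that rule, reversed as well (8.03). Of the other pairs of gene and region, 73 held and 21 fell under 10 percentage points. In the colony tables, added after seeing the data, 63 held and 8 fell under it. The other settings tried left the counts within 1.5 times. The cause of these shifts was not tested.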

Other observations

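Some regions appear more than once with the same values. Of 18383 regions whose 2 levels sum to over 2%, 569 shared both levels and their number of CpGs with another region, in 260 sets. Among them were 39 regions called higher and 4 called lower. With each set counted once, a count added after seeing the data, 1264 increases and 165 decreases on HS chow were counted. One set links a gene body region of Cmip (chr19:60628518-60628655) with an intergenic region at chr19:58805094-58805231, both at 14.3% on HS and 3.73% on LS chow. Gene body regions of Gjc1, a connexin, and Atp6v0a1, a proton pump subunit, on chromosome 10 shared an HS level of 53.5%, with LS levels of 20.6% and 20.8%. Which copy the reads came from cannot be told from the tables.

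Ribosomal RNA genes stood out by number. The table names Rn5-8s, part of the ribosomal RNA repeat, at 133 regions on 4 chromosomes, with 9 called higher and 5 called lower on HS chow and mean levels of 18.6% on HS and 16.3% on LS chow. Regions at 2 of these places, on chromosomes 14 and 5, were at the same 46.5% on HS chow and at 19.4% and 19.5% on LS chow. Since copies of the repeat are nearly identical, these regions are uncertain, and their levels in the tables against blood differed from those here.

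The gene Zfp316, a zinc finger gene, differed from most increases in its relation to blood. It had 6 of 16 regions called higher and 1 called lower. At chr12:15404487-15404625, over 9 CpGs, kidney was at 25.4% on HS and 5.50% on LS chow, while CRL blood was at 1.80% on HS and 2.61% on LS chow. MCW kidney was at 8.54% on HS and 14.8% on LS chow in the overlapping region, without a call.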
